A study of Mus musculus with 15 samples.

Results

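The 9 genes described here encode the xenobiotic receptors CAR (Nr1i3) and PXR (Nr1i2), their partner RXRα (Rxra), and members of the target families Cyp2b (Cyp2b9, Cyp2b10, Cyp2b13) and Cyp3a (Cyp3a11, Cyp3a13, Cyp3a25). They were taken by gene symbol, with no threshold on a value, from the 55984 symbols of the count table, in which all 9 were present, although earlier results of these data were known when the set was chosen. Of these, 8 were among the 17488 genes that passed the filter on low counts and were tested, and Cyp2b13 was not.

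The study asked how the transcriptome of hepatocytes differs with DNA content and, at equal DNA content, between cells with a single nucleus and cells with a pair of nuclei. Liver cells of untreated wild-type (WT) adult male mice of the strain C57BL/6JJcl were stained with the DNA dye Hoechst and separated by flow cytometry into diploid cells (2n-whole), all tetraploid cells (4n-whole), and tetraploid cells with a low or a high peak of the dye signal (4n-bottom and 4n-top). The 4n-bottom gate is enriched for binucleated and the 4n-top gate for mononucleated cells, and neither is pure. By the paper's counts 4n-top is much the less pure of these gates and still holds many binucleated cells. RNA-seq libraries were available from mice 1 to 4 for 2n-whole, 4n-whole and 4n-bottom and from mice 2, 3 and 4 for 4n-top, 15 libraries in all. The authors left out the 4n-top sample of mouse 1 because its RNA was of poor quality, and it is not among these libraries. Total counts per library ranged from 22049498 to 42096421, and 3 counts, taken as the limit of detection, corresponded to 0.0693 to 0.120 CPM, the usual scaling of a count by the library size. That limit covers counting error only. The hepatocyte markers Alb, Apoa1, Ttr, Serpina1a, Cps1 and Hnf4a together held between 69742 and 98545 CPM in every library. In bulk RNA, fewer cells that express a gene and less of its RNA per cell cannot be told apart. According to the methods, sorted diploid cells were pelleted by a harder and longer spin than sorted tetraploid cells. Handling therefore differed along with DNA content in every comparison against the diploid cells, and its part in the differences was not tested.

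CAR and PXR are nuclear receptors of the hepatocyte that sense drugs, bile acids and other foreign or endogenous compounds. Each binds DNA as a heterodimer with RXRα at repeats of a hexamer and raises transcription of cytochrome P450 genes, of which Cyp2b10 is the classic target of CAR and Cyp3a11 that of PXR in the mouse. Resting CAR is held in the cytoplasm by a chaperone complex, so its mRNA level and its activity are separate quantities. Cyp2b9 and Cyp2b13 are known as female-biased genes of the mouse liver, and the mice here were male.

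The 3000 bases before the start of each gene were searched on both strands, in the GRCm39 genome, for exact pairs of the half-sites AGGTCA, the consensus hexamer, with AGTTCA and also AGTACA, as direct repeats with a gap of 4 (DR4) or 3 (DR3) bases or as everted repeats with a gap of 6 (ER6). The sequence of the only match among the 9 genes is shown because Cyp2b10 is the only P450 gene of the 9 found to differ between populations. It lies at chr7:25594747-25594762, 2298 bases before the start of Cyp2b10 on the plus strand, and the capitals mark the DR4, whose half-sites read on the minus strand.
Cyp2b10 upstream repeat: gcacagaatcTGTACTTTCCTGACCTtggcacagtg
A DR4 of these letters stood before 0.634% of 21768 protein-coding genes, and any of the searched repeats before 1.41%. The half-site AGTACA had been included because it is part of the known CAR element of Cyp2b10, and without it 0 of the 9 genes and 0.868% of all genes had a match. A match is a description of letters and not of binding.

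The 150 bases before the start of the 3 Cyp2b genes are shown because these neighbours on chromosome 7 were counted at very different levels. The sequences are RefSeq's on GRCm38.p6, on the plus strand, and capitals mark the 1 base at which Cyp2b9 and Cyp2b13 differ (Cyp2b10 carries no marks).
Cyp2b9, chr7:26173259-26173408: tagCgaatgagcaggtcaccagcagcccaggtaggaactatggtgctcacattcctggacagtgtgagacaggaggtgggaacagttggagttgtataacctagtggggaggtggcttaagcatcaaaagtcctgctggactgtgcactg
Cyp2b13, chr7:26061345-26061494: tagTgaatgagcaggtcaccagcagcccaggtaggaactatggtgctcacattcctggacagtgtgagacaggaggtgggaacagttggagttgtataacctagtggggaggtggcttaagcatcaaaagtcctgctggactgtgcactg
Cyp2b10, chr7:25897508-25897657: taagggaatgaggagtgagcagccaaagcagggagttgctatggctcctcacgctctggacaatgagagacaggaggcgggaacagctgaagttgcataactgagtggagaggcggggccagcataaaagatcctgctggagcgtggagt
Over the 250 bases before the start, Cyp2b9 and Cyp2b13 were 99.2% identical, while Cyp2b10 was 71.0% identical to either of them. The 3 Cyp3a genes shared 52.7% to 57.2% over the same stretch. None of the 9 stretches of 250 bases held a searched repeat, and 0.0822% of 32851 RefSeq promoters did.

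Nr1i3 mRNA was higher in each of the 4n populations than in 2n-whole hepatocytes. Nr1i3 lies at chr1:171041506-171048270 (GRCm39, plus strand). In mice 1, 2, 3 and 4 its normalised read count was 2.83, 5.34, 17.3 and 10.7 CPM in 2n-whole and 12.6, 13.6, 37.2 and 31.9 CPM in 4n-whole. The 4n-bottom values were 6.06, 10.6, 31.1 and 16.5 CPM in the same order, and in 4n-top it was 9.05, 35.0 and 28.6 CPM in mice 2, 3 and 4. The ranges of the populations overlapped, as the mice differed widely, yet within every mouse each 4n library lay above the 2n-whole library. Mouse 3 was the highest in all 4 populations.

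Nr1i3 averaged 9.05 ± 6.42 CPM in 2n-whole, 23.8 ± 12.6 CPM in 4n-whole and 16.1 ± 10.9 CPM in 4n-bottom (SD, 4 mice each), and 24.2 ± 13.5 CPM in 4n-top (SD, 3 mice). With the mouse in the model, 4n-whole exceeded 2n-whole by 1.53 ± 0.16 on the log2 scale (SE), a 2.90-fold difference (adjusted p = 6.72e-07, edgeR quasi-likelihood test over all tested genes, higher in 4 of 4 mice). Genes counted as called where the adjusted p was below 0.05 and the log2 fold change exceeded 0.5 in either direction. In this comparison 2 of the 8 tested genes were called, Nr1i3 as higher and Cyp2b10 as lower, against 3.47% of all tested genes. For 4n-bottom against 2n-whole the log2 fold change of Nr1i3 was 0.88 ± 0.16 (adjusted p = 0.00519 by edgeR, higher in 4 of 4 mice). There the same 2 genes were called, against 0.463% of all tested genes. For 4n-top against 2n-whole it was 1.16 ± 0.18 (adjusted p = 0.000158 by edgeR, higher in 3 of 3 mice). Nr1i3 was the 1 gene of the 8 called in that comparison, against 0.961% of all tested genes. These 3 comparisons share the 2n-whole libraries and are not independent of each other. Each call rested on the comparison within mice, since without the mouse in the model the Nr1i3 log2 fold changes were 1.40, 0.83 and 1.42 with adjusted p of 0.321, 0.999 and 0.573.

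**Figure D1:**
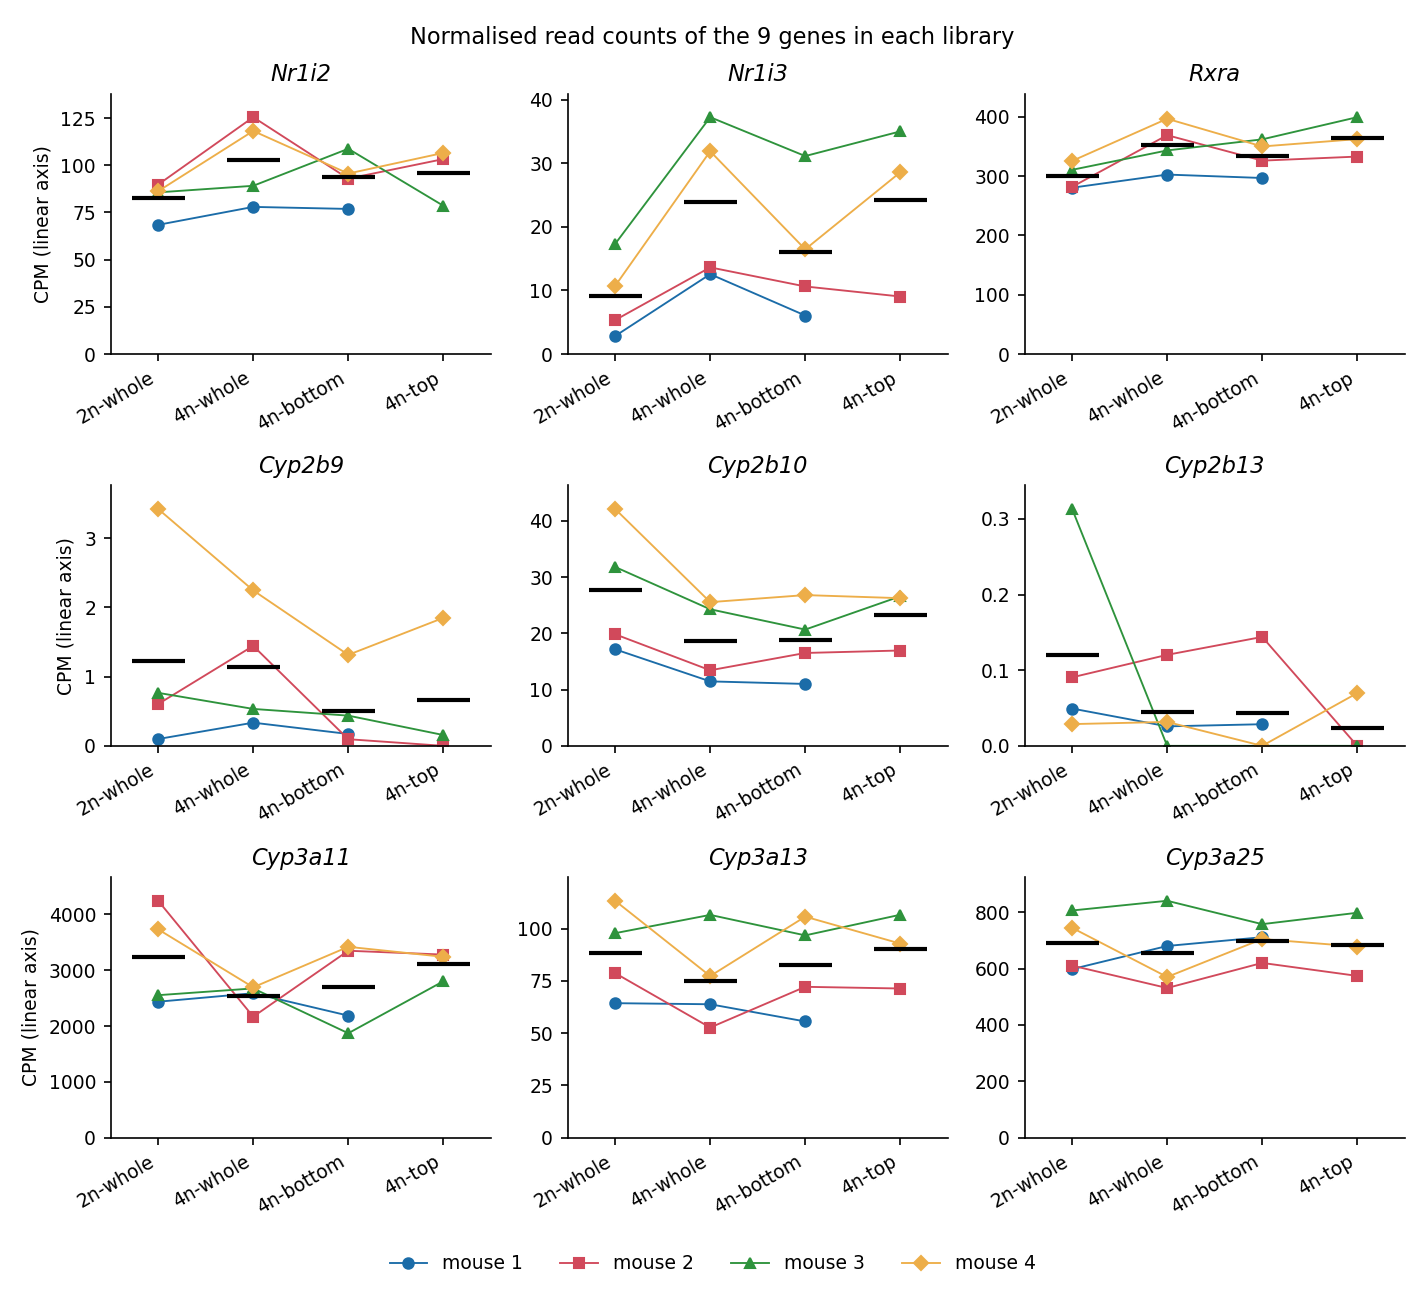
Normalised read count (CPM, linear axis from 0) of each of the 9 genes by population, with 1 symbol and line for each mouse and a black bar for the population mean. For Nr1i3 the 2n-whole library is the lowest of each mouse, while the mice span 2.83 to 17.3 CPM within 2n-whole.

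Nr1i3 levels have a limit that among the other 8 genes touches Cyp3a13 alone, and to a smaller extent. On the opposite strand the gene overlaps Tomm40l, which encodes a mitochondrial import channel protein, and 1028 of the 1506 bases of the main Nr1i3 transcript (68.3%) are also exon of Tomm40l. The library kit keeps the strand of the RNA, but whether the counting used it was not given in the sources used here. The table itself bears on it. Among 265 genes whose exons lie wholly inside exons of opposite-strand genes, 23.8% had any count, close to the 18.0% of 512 genes wholly inside exons of the same strand. Among 2169 genes that lie within the span of an opposite-strand gene without sharing exons, 91.2% had counts. Genes wholly inside exons of either strand thus mostly had no counts. These classes were not matched for gene type, length or expression, so whether reads over shared exons were left out was not tested. If they were, the counts of Nr1i3 stand mainly for the 478 bases that Tomm40l does not share. The level of Nr1i3 per length was not computed for this reason. Tomm40l was counted at 3.30 to 7.99 CPM over the 15 libraries, and its log2 fold change of 0.27 ± 0.23 for 4n-whole against 2n-whole did not pass the test (adjusted p = 0.568 by edgeR).

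Among the 4n populations, Nr1i3 was highest in 4n-whole within every mouse. It exceeded 4n-bottom by 0.65 ± 0.16 on the log2 scale (95% confidence interval 0.33 to 0.98, adjusted p = 0.222 by edgeR, higher in 4 of 4 mice) and 4n-top by 0.37 ± 0.18 (0.01 to 0.73, adjusted p = 0.984 by edgeR, higher in 3 of 3 mice). Neither difference was called, and 0 of the 8 genes were called in either comparison by edgeR, against 0.00572% and 0% of all tested genes. At an unadjusted p under 0.05, 2 of the 8 passed in each comparison, Nr1i3 and Cyp2b9, against 974 and 700 of all 17488 tested genes. Cyp2b9 had as few as 4 counts in a 4n-bottom library and 0 in a 4n-top library. DESeq2 with the mouse in the model, run on the same genes, likewise called 0 of the 8 in both comparisons, with an adjusted p of 0.0572 for Nr1i3 in 4n-whole against 4n-bottom. Run without the filter on low counts it called Nr1i3 there (adjusted p = 0.00363), but that setting called 3379 genes in all. Nr1i3 was also called there by edgeR without the filter, by ComBat-seq followed by DESeq2 and by edgeR without mouse 2 (adjusted p = 0.00633, 0.0202 and 0.0156). The 4n-whole cells were sorted on DNA content without the split into 4n-top and 4n-bottom.

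Nr1i2 (chr16:38068685-38115216, GRCm39, minus strand) changed less. In mice 1 to 4 it stood at 68.4, 89.8, 85.6 and 86.3 CPM in 2n-whole and at 77.9, 125, 89.1 and 118 CPM in 4n-whole. In 4n-bottom the values were 76.8, 92.9, 109 and 95.6 CPM, and in 4n-top they were 103, 78.5 and 107 CPM in mice 2, 3 and 4. The 4n-whole library lay above the 2n-whole library in 4 of 4 mice, and the ranges overlapped. The log2 fold change of 0.30 ± 0.11 was not called (95% confidence interval 0.08 to 0.52, adjusted p = 0.0925 by edgeR). It was 0.18 ± 0.10 for 4n-bottom and 0.12 ± 0.12 for 4n-top against 2n-whole, with adjusted p of 0.571 and 0.773.

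Rxra (chr2:27566452-27653330, GRCm39, plus strand), the shared partner of both receptors, varied least between mice among the tested genes. It was counted at 280, 282, 311 and 326 CPM in 2n-whole and at 303, 369, 343 and 397 CPM in 4n-whole in mice 1 to 4. The 4n-bottom libraries had 297, 326, 362 and 350 CPM, and in 4n-top it was 333, 399 and 362 CPM in mice 2, 3 and 4. All 3 libraries of 4n-top lay above all 4 of 2n-whole, which was so for 9.21% of all tested genes in either direction. Mouse 1, the lowest for Rxra in 2n-whole, 4n-whole and 4n-bottom, has no 4n-top library. The log2 fold change was 0.23 ± 0.08 in 4n-whole, 0.15 ± 0.08 in 4n-bottom and 0.23 ± 0.09 in 4n-top against 2n-whole, and none was called (adjusted p = 0.0964, 0.546 and 0.303 by edgeR). Divided by the length of the main transcript, Rxra had a median of 60.8 CPM per kilobase over the 15 libraries, and Nr1i2 had 34.7.

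Against 2n-whole, Cyp2b10 moved opposite to Nr1i3 in the 4n populations. The gene lies at chr7:25597045-25626049 (GRCm39, plus strand) and encodes the drug-metabolising P450 whose upstream repeat is printed above. Its normalised read count was 17.2, 19.8, 31.8 and 42.1 CPM in 2n-whole and 11.5, 13.4, 24.3 and 25.5 CPM in 4n-whole in mice 1 to 4. In 4n-bottom it was 11.0, 16.5, 20.7 and 26.8 CPM, and in 4n-top it was 16.9, 26.6 and 26.2 CPM in mice 2, 3 and 4. The populations overlapped, but within each mouse the 2n-whole library was the highest.

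Cyp2b10 fell by 0.56 on the log2 scale in 4n-whole (SE 0.12, adjusted p = 0.00633 by edgeR, lower in 4 of 4 mice), a decrease from 27.7 ± 11.5 to 18.7 ± 7.26 CPM (SD, n = 4 each). In 4n-bottom it fell by 0.54 (SE 0.12, adjusted p = 0.0359 by edgeR, lower in 4 of 4 mice), with a mean of 18.7 ± 6.67 CPM (SD, n = 4). In 4n-top the log2 fold change was -0.40 ± 0.14 and was not called (95% confidence interval -0.68 to -0.12, adjusted p = 0.194 by edgeR, lower in 3 of 3 mice). Both calls lie close to the threshold on the fold change, yet where a call was lost in the following fits it was lost on the adjusted p. Without mouse 4 the 4n-whole value was -0.51 (adjusted p = 0.144), and the 4n-bottom value was -0.52, -0.52 and -0.51 without mouse 1, 3 or 4 (adjusted p = 0.141, 0.184 and 0.366). Without the mouse in the model neither was called (log2 fold changes of -0.57 and -0.56, adjusted p = 0.490 and 0.999).

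Although Cyp2b10 and Nr1i3 went in opposite directions from 2n-whole to the 4n populations, they shared a split of the mice. Mice 3 and 4 were above mice 1 and 2 for both genes in every population in which these mice were measured, although mouse 3 was the highest for Nr1i3 in all 4 populations and mouse 4 for Cyp2b10 in 2n-whole, 4n-whole and 4n-bottom. The highest 2n-whole level of Cyp2b10 was 2.45 times the lowest, and that of Nr1i3 was 6.11 times the lowest.

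Cyp2b9 was low and Cyp2b13 was close to the limit of detection. Cyp2b9 (chr7:25872835-25910086, GRCm39, plus strand) was counted at 0.0986, 0.604, 0.765 and 3.42 CPM in 2n-whole and at 0.335, 1.44, 0.533 and 2.24 CPM in 4n-whole in mice 1 to 4. In 4n-bottom it was 0.171, 0.0960, 0.436 and 1.31 CPM, and in 4n-top it was 0, 0.156 and 1.85 CPM in mice 2, 3 and 4. Mouse 4 was the highest in all 4 populations, with 50 to 119 counts, and 1 of the 15 libraries was at or under 3 counts, at 0. No comparison called it (adjusted p = 0.741, 0.683 and 0.423 by edgeR for 4n-whole, 4n-bottom and 4n-top against 2n-whole), and its 95% confidence interval for 4n-whole against 2n-whole ran from -0.90 to 2.00 on the log2 scale. Its fitted fold changes against 4n-top depend on the small count added before the logarithm, since 1 of those libraries is at 0.

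Cyp2b13 (chr7:25760922-25795622, GRCm39, plus strand) had 2, 3, 9 and 1 counts in 2n-whole, 1, 3, 0 and 1 in 4n-whole, and 1, 6, 0 and 0 in 4n-bottom in mice 1 to 4. In 4n-top it had 0, 0 and 2 counts in mice 2, 3 and 4. Thus 13 of 15 libraries were at or under 3 counts, 5 of them at 0, and a difference between populations was not detectable at this depth. Of the stretches of 100 bases in its transcripts, 9.29% also occur in another gene, mostly the neighbouring Gm45225, so some of these few counts may have been assigned elsewhere. Per length, the median of Cyp2b10 over the 15 libraries was 38.0 times that of Cyp2b9, and Cyp2b10 held 89.6% to 100% of the normalised counts of the 3 Cyp2b genes in each library.

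Cyp3a11 and Cyp3a25 were the most abundant of the 9 genes in CPM, and none of the 3 Cyp3a genes was called in any comparison by edgeR. Cyp3a11 (chr5:145791236-145816867, GRCm39, minus strand), the main PXR-inducible Cyp3a of the mouse liver, was counted at 2436, 4244, 2553 and 3733 CPM in 2n-whole and at 2588, 2168, 2674 and 2694 CPM in 4n-whole in mice 1 to 4. In 4n-bottom it was 2187, 3349, 1871 and 3419 CPM, and in 4n-top it was 3280, 2801 and 3241 CPM in mice 2, 3 and 4. The difference between 2n-whole and 4n-whole came from mice 2 and 4, since in mice 1 and 3 the 4n-whole library was slightly above the 2n-whole library.

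The log2 fold change of Cyp3a11 was -0.30 ± 0.12 for 4n-whole against 2n-whole (95% confidence interval -0.56 to -0.05, adjusted p = 0.157 by edgeR) and -0.26 ± 0.12 for 4n-bottom (adjusted p = 0.463), where it was lower in 4 of 4 mice. For 4n-top it was -0.10 ± 0.14 (adjusted p = 0.853). All 3 libraries of 4n-top lay above all 4 of 4n-whole, as was the case for 3.31% of all tested genes in either direction, and the log2 fold change of -0.21 ± 0.14 for 4n-whole against 4n-top was not called (adjusted p = 0.984 by edgeR).

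Cyp3a25 (chr5:145913516-145946432, GRCm39, minus strand), a constitutive Cyp3a of the adult liver, differed least between populations. It stood at 598, 610, 806 and 744 CPM in 2n-whole and at 680, 531, 840 and 570 CPM in 4n-whole in mice 1 to 4. In 4n-bottom it was 711, 620, 757 and 705 CPM, and in 4n-top it was 574, 798 and 678 CPM in mice 2, 3 and 4. The log2 fold changes against 2n-whole were -0.08 ± 0.09, 0.02 ± 0.09 and -0.03 ± 0.10 for 4n-whole, 4n-bottom and 4n-top (adjusted p = 0.670, 0.958 and 0.951 by edgeR). The 95% confidence interval for 4n-whole covers folds from 0.832 to 1.07.

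Cyp3a13 (chr5:137891193-137919882, GRCm39, minus strand), a Cyp3a also expressed in the intestine, was counted at 64.3, 78.7, 97.8 and 113 CPM in 2n-whole and at 63.8, 52.7, 107 and 77.3 CPM in 4n-whole in mice 1 to 4. In 4n-bottom it was 55.6, 72.2, 96.8 and 106 CPM, and in 4n-top it was 71.4, 107 and 92.8 CPM in mice 2, 3 and 4. The log2 fold change for 4n-whole against 2n-whole was -0.24 ± 0.11 (adjusted p = 0.210 by edgeR, lower in 3 of 4 mice). The opposite-strand lncRNA Gm36551 shares 23.5% of the main Cyp3a13 transcript, where reads may likewise have been left out, and was counted at 0.401 to 3.13 CPM.

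Per length, Cyp3a11 had a median of 1105 CPM per kilobase over the 15 libraries, Cyp3a25 had 338, and Cyp3a13 had 26.6. The Cyp3a13 value is divided by the whole transcript, shared bases included, and is too low to the extent that reads there were left out. The order Cyp3a11, Cyp3a25, Cyp3a13 held in each population. Lowest values were 768, 264 and 17.8 and highest values 1742, 418 and 38.3 CPM per kilobase, so the ranges of the 3 genes did not overlap. The 3 genes summed to 4020 ± 881 CPM in 2n-whole, 3261 ± 365 CPM in 4n-whole and 3487 ± 758 CPM in 4n-bottom (SD, n = 4 each), and to 3881 ± 158 CPM in 4n-top (SD, n = 3). Cyp3a11 contributed 68.7% to 86.0% of that sum.

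**Figure D2:**
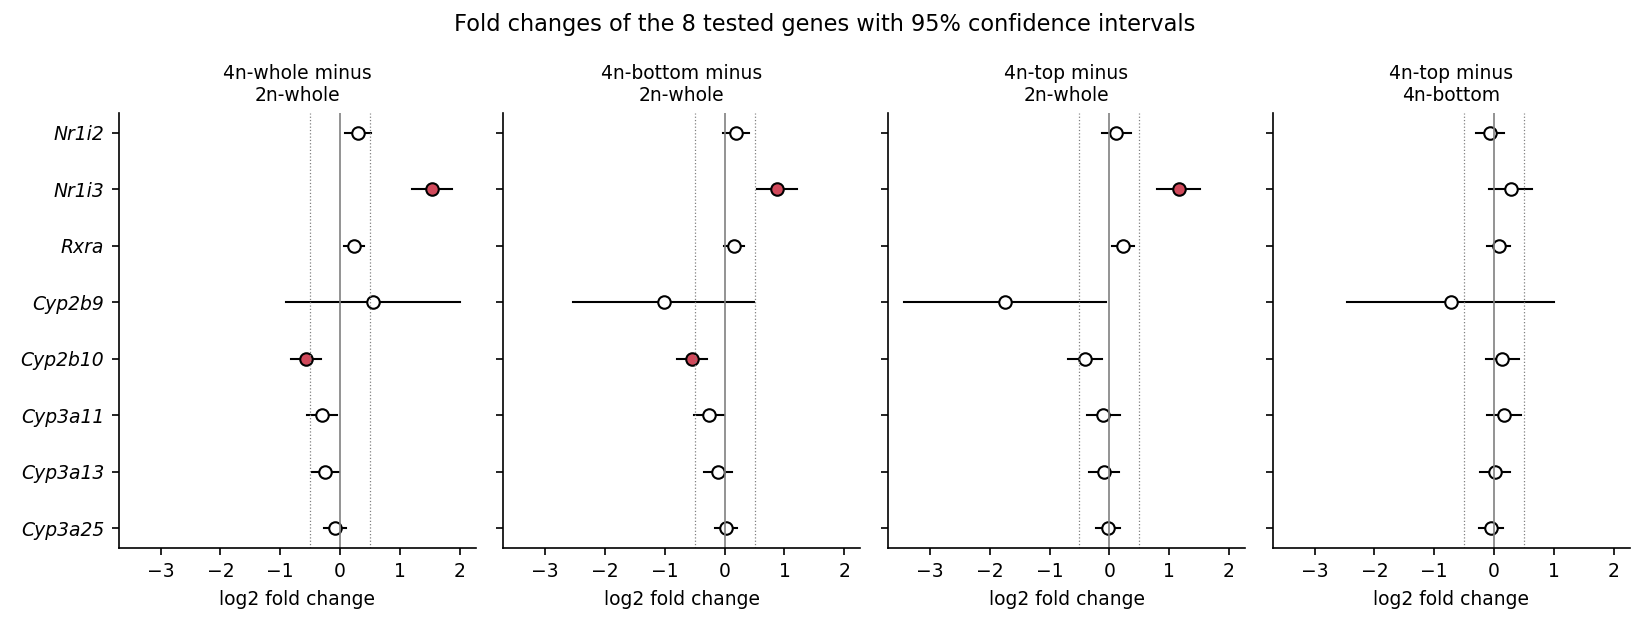
Log2 fold changes (x axis) of the 8 tested genes in 4 comparisons, with 95% confidence intervals as bars, filled symbols for genes called and dotted lines at the threshold of 0.5 in each direction. Nr1i3 is called in all 3 comparisons against 2n-whole and Cyp2b10 in those of 4n-whole and 4n-bottom, and none of the 8 genes is called in 4n-top against 4n-bottom.

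Between 4n-top and 4n-bottom, which sets cells of equal DNA content side by side, 0 of the 8 genes were called by edgeR, against 0.0114% of all tested genes. At an unadjusted p under 0.05, 0 of the 8 genes and 488 of all tested genes passed, and DESeq2 with the mouse in the model also called 0 of the 8. Nr1i3 had the largest positive log2 fold change, 0.28 ± 0.17 (95% confidence interval -0.08 to 0.64, higher in 2 of 3 mice). Cyp3a11 stood at 0.17 ± 0.14, higher in 1 of 3 mice, and Cyp2b10 at 0.14 ± 0.14, higher in 2 of 3 mice. For the 7 genes other than Cyp2b9 the intervals lay between -0.31 and 0.64, so a difference of up to 1.55-fold in Nr1i3 remained within them. The interval of Cyp2b9 ran from -2.45 to 1.01. Neither gate is pure, so these intervals describe the gates and not mononucleated against binucleated cells. The paper states that the limited purity of 4n-top likely made the differences smaller.

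Differences between mice were set beside those between populations by the range of the fitted values. The range over the 4 mice was wider than that over the 4 populations in 8 of 8 genes, and in 66.1% of all tested genes. Whether the ranges differ from each other was not tested, and for Rxra they were close, at 0.26 and 0.23 on the log2 scale. For Nr1i3 the mice spanned 4.43-fold and the populations 2.90-fold, and for Cyp2b10 they spanned 2.30-fold and 1.48-fold. For Cyp3a13 the spans were 1.66-fold and 1.18-fold, and for Cyp3a25 they were 1.37-fold and 1.08-fold. The widest span over mice was that of Cyp2b9, 15.6-fold, with mouse 4 highest and mouse 1 lowest.

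A joint edgeR test of the differences between mice called 7 of the 8 genes (all but Rxra, adjusted p = 0.122), against 19.2% of all tested genes. DESeq2 also called 7, with Rxra in place of Cyp3a11. The smallest adjusted p were 5.02e-10 for Nr1i3 and 2.25e-07 for Cyp2b10. The libraries of 1 mouse come from 1 liver preparation, so differences between animals and between preparations cannot be told apart, and these p-values do not treat animals as replicates of a group. By the fitted values, mouse 1 was the lowest in 7 of the 8 genes, the exception being Cyp3a25, for which mouse 2 was lowest. Within single populations this order did not always hold. For Cyp3a11 the lowest library was that of mouse 2 in 4n-whole and that of mouse 3 in 4n-bottom.

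**Figure D3:**
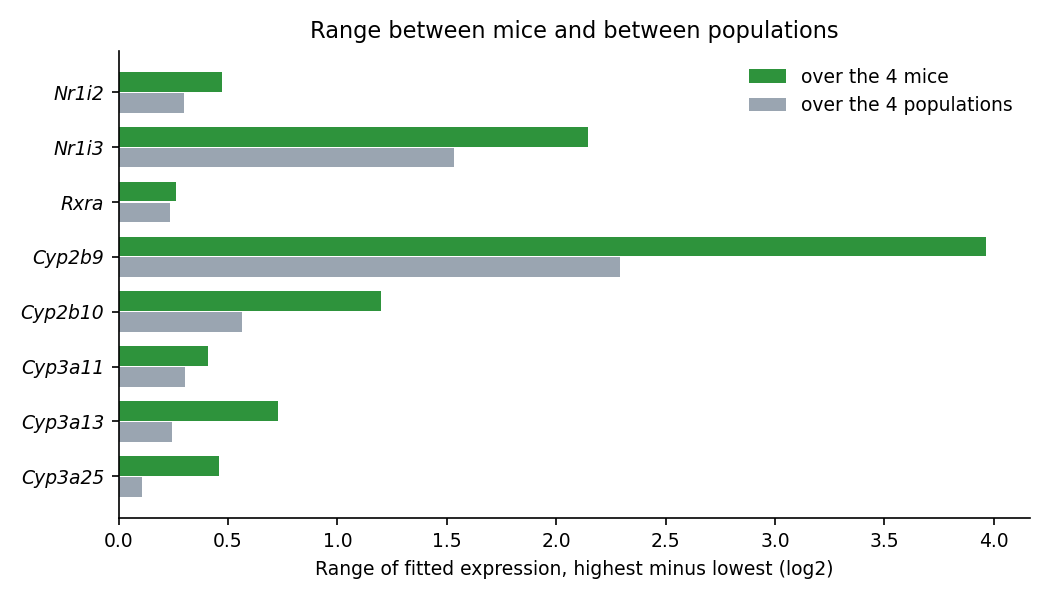
Range of fitted expression (highest minus lowest, log2, axis from 0) over the 4 mice and over the 4 populations for each of the 8 tested genes. The bar for the mice is the longer one for every gene, from 0.26 for Rxra to 3.97 for Cyp2b9.

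Other genes of the pathway were read from lists chosen by their known roles. Of 12 receptor partners and coregulators, all tested, 0 were higher and 1 was lower in 4n-whole than in 2n-whole, against 1.74% higher and 1.73% lower of all tested genes. Their median log2 fold change was 0.03, beside -0.01 over all tested genes. The one that fell was Ppargc1a, a coactivator of nuclear receptors in fasting metabolism, by 0.59 (SE 0.13, adjusted p = 0.00682 by edgeR). Cebpa, a transcription factor of hepatocyte identity, stood at 0.45 ± 0.11 on the log2 scale (adjusted p = 0.0142 by edgeR), under the fold threshold. Of the 9 genes listed for the retention of CAR and the signalling to it, 0 were called by edgeR (4n-whole against 2n-whole, median 0.03, range -0.22 to 0.21). The smallest p was that of Egfr, the growth factor receptor through which CAR is kept inactive, at -0.22 ± 0.08 (adjusted p = 0.121).

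Of 5 genes for electron transfer to P450 enzymes and for heme supply, 1 was higher in 4n-whole. Por, the reductase that passes electrons to all microsomal P450 enzymes, rose by 0.65 ± 0.10 (adjusted p = 7.74e-05 by edgeR). It was counted at 144, 169, 267 and 276 CPM in 2n-whole and 211, 242, 432 and 499 CPM in 4n-whole in mice 1 to 4. Por was also called in 4n-top against 2n-whole, at 0.59 on the log2 scale, and in 4n-bottom the value was 0.31 (adjusted p = 0.214). Alas1, the first enzyme of heme synthesis, stood at -0.34 ± 0.10 on the log2 scale in 4n-whole (adjusted p = 0.0445 by edgeR), under the fold threshold.

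Of 21 other genes known as targets of CAR or PXR, 5 were higher and 1 was lower in 4n-whole, with a median log2 fold change of 0.12. The 5 were the P450 genes Cyp2a5 (1.60 ± 0.15 on the log2 scale, adjusted p = 7.05e-08), Cyp2c29 (1.56), Cyp2c37 (1.55 ± 0.18), Cyp2c54 (1.34) and Cyp2c50 (1.29 ± 0.16), all by edgeR. The one lower was Abcb1a, an efflux transporter, at -0.83 (adjusted p = 0.0336). The 15 others, among them the transporters Abcc2, Abcc3 and Slco1a4 and the conjugating enzymes Ugt1a1, Gstm1 and Gsta2, were not called. Against 2n-whole, 2 of the 21 were higher in 4n-bottom and 5 in 4n-top, and 0 were lower in either. Of all tested genes 0.234% were higher and 0.229% lower in 4n-bottom, and 0.44% were higher and 0.52% lower in 4n-top. In 4n-top against 4n-bottom 0 of the 21 were called by edgeR, with Cyp2c50 at 0.73 ± 0.17 (unadjusted p = 0.000267, adjusted p = 0.468). Of 8 further Cyp2b and Cyp3a genes, 4 could be tested and 0 were called in 4n-whole against 2n-whole, the smallest p being that of Cyp3a59 (-0.20 ± 0.12, adjusted p = 0.400).

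Landmarks of lobular position were read in the same comparison. Of 11 landmarks of pericentral hepatocytes, the cells around the central vein, 10 were higher and 0 lower in 4n-whole than in 2n-whole, with a median log2 fold change of 1.62. Cyp1a2 stood at 1.65 ± 0.15, Gulo at 1.57 ± 0.16 and Tbx3 at 2.07 ± 0.21, beside 1.53 for Nr1i3. The summed level of the 11 genes was 502 to 807 CPM in 2n-whole, 819 to 2872 CPM in 4n-whole, 811 to 2054 CPM in 4n-bottom and 802 to 3098 CPM in 4n-top. In 4n-bottom 7 and in 4n-top 6 of the 11 were higher than in 2n-whole. In 4n-top against 4n-bottom 1 of the 11 was lower and 0 were higher by edgeR, against 0.0114% of all tested genes in either direction. Their log2 fold changes there ran from -1.80 to 0.72, with a median of 0.02. Of 11 periportal landmarks 2 were lower in 4n-whole, Cyp2f2 at -0.73 ± 0.11 and Hsd17b13 at -0.61 ± 0.10, and 0 were higher, with a median log2 fold change of -0.24. The part of lobular position in the differences of Nr1i3, Cyp2b10 and the other P450 genes was not tested.

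**Figure D4:**
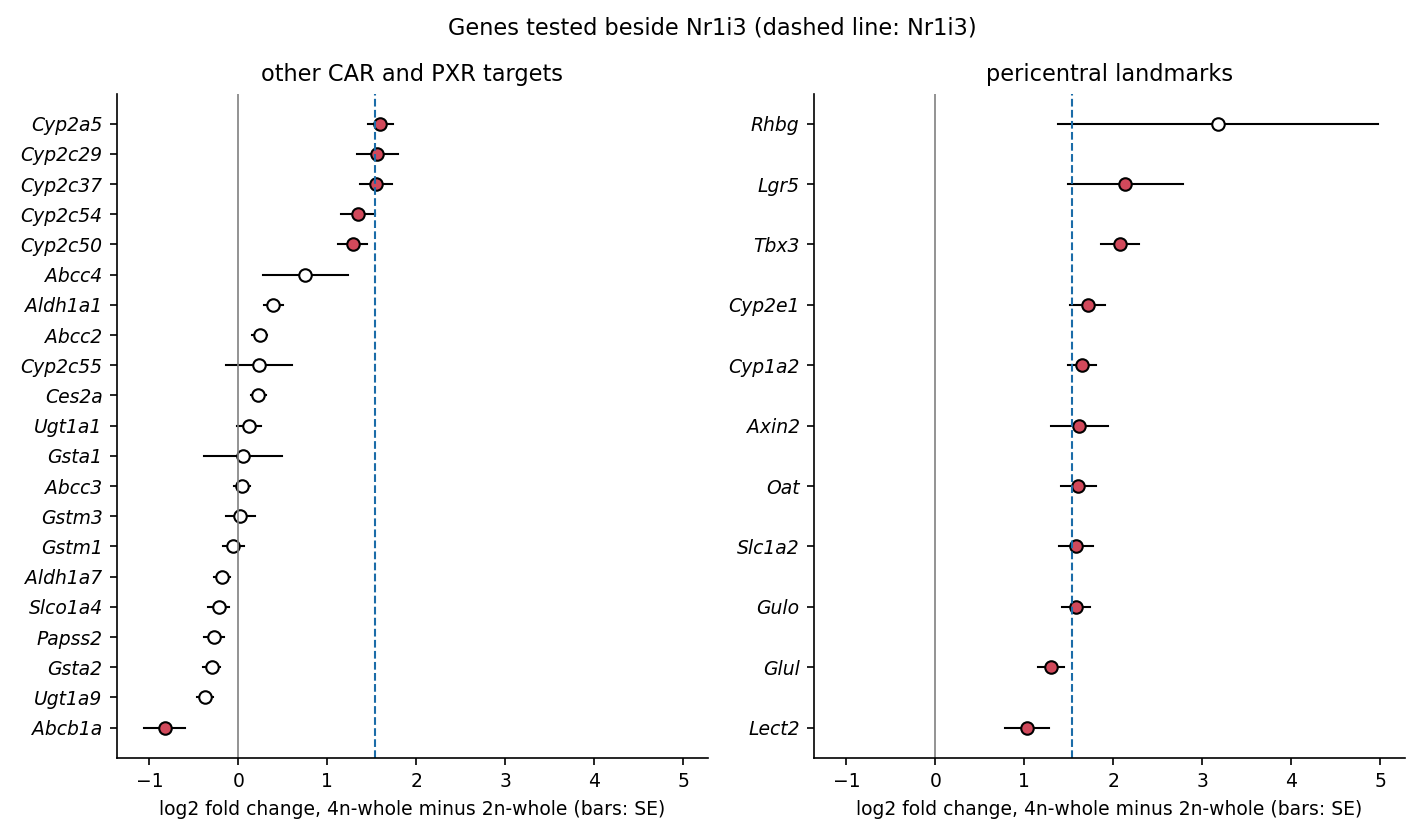
Log2 fold changes of 4n-whole against 2n-whole (x axis, bars are SE) for 21 other CAR and PXR targets and 11 pericentral landmarks, with filled symbols for genes called and a dashed line at the Nr1i3 value of 1.53. Among the targets, 5 P450 genes lie near that line and the others within 1 unit of 0, and 10 of the 11 landmarks are called.

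In the same comparison, markers of other liver cells were low. The 5 cholangiocyte markers, of which Sox9 and Spp1 are also made by some hepatocytes near the portal vein, summed to 34.6 to 47.4 CPM in 2n-whole and at most 31.2 CPM in 4n-whole, and 2 of the 4 tested were lower in 4n-whole (Spp1 at -2.81 ± 0.38 and Sox9 at -0.62 ± 0.12). Endothelial markers summed to 11.41 to 19.04 CPM in 2n-whole and 2.43 to 22.3 CPM in 4n-whole. Kupffer cell markers summed to 0.616 to 7.64 and 0.822 to 2.33 CPM, and stellate cell markers to 2.98 to 5.01 and 1.77 to 3.53 CPM, in the same order. Lymphocyte markers reached at most 0.361 CPM over the 15 libraries. None of the tested endothelial, Kupffer or stellate markers was called by edgeR in 4n-whole against 2n-whole, yet the fitted log2 fold change was below 0 for all 6 endothelial (median -0.97), all 6 Kupffer (median -2.46) and all 5 stellate markers tested (median -1.57). Of the 6 genes of each list 5, 2 and 1 exceeded 3 counts in every 4n-whole library, so these medians rest on few counts. The 3 erythroid markers summed to 52.7 to 106 CPM, and the 1 that could be tested, Alas2, was not called (adjusted p = 0.572). Their part in the results was not tested.

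Sex-biased liver genes were read because Cyp2b9 and Cyp2b13 belong to them. Of 15 female-biased genes 9 could be tested and 0 were called by edgeR in 4n-whole against 2n-whole, with Cyp17a1 and Cyp2a4 at -0.58 ± 0.20 and -0.77 ± 0.27 (adjusted p = 0.0814 and 0.0971). Of 10 male-biased genes 2 were higher and 2 lower, with log2 fold changes from -1.61 to 1.27. Elovl3, an enzyme of fatty acid elongation, and the steroid dehydrogenase gene Hsd3b5 rose by 1.27 and 1.17, while Ugt2b38 and the pheromone-carrier gene Mup20 fell by 1.61 and 1.06 (all adjusted p by edgeR at most 1.6e-06).

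The genes whose pattern was most like each member across the 15 libraries were found by Pearson's correlation of log2 CPM with the mouse effect removed, among 7365 genes. These values are a description, since the libraries share mice and populations. For Nr1i3 they were Cyp26a1 (r = 0.96), Tbx3 (0.95) and Cyp2a5 (0.95), of which Tbx3 is on the pericentral list and Cyp2a5 on the target list. For Cyp2b10 they were Mup21 (0.94), Eps15 (0.92) and Tnfaip3 (0.92), and for Cyp3a11 they were Crot (0.98), Chpt1 (0.96) and Pcbd1 (0.96). For Nr1i2 they were Inf2, Gckr and Gadd45g (0.95 each), and for Rxra they were Tmprss6, C4b and Tmbim6 (0.95 each). Cyp3a13 was most like Tcp1, Pcnp and Mif (0.97, 0.97 and 0.96), Cyp3a25 most like Frs2, Braf and Mup22 (0.92, 0.91 and 0.91), and Cyp2b9 most like Gclc, Foxp1 and Tjap1 (0.78, 0.77 and 0.76).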

How the data were processed

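Sorted hepatocytes of individual mice gave 15 RNA-seq libraries from 4 populations. According to the methods and the submitters' processing notes, STAR (2.7.11a) mapped reads to the GRCm39 genome, and featureCounts from Subread counted them per gene. The table that the authors deposited holds these raw counts, for 55984 gene symbols, without normalization or adjustment for the mouse. The annotation, the strand setting and the handling of read pairs and multimapping reads were not given in the sources used here.

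Counts were tested with edgeR 4.0.16 in R 4.3.3 by the quasi-likelihood F test, with TMM normalization and the default filter on low counts (minimum count 10, minimum total 15). The model held the population and, as replicate block, the mouse, and was fitted to the 15 libraries together. Adjustment of p-values followed Benjamini and Hochberg and covered 17488 genes. Calls used the thresholds of the study (adjusted p 0.05, log2 fold change 0.5 in either direction). Standard errors were taken from the log2 fold change and its F value. The block follows the subject number in the labels, which names the same mouse in each population. After removal of the population means, pairs of libraries from 1 mouse correlated across genes at 0.158 on average (0.0845 to 0.227 over 21 pairs). Replicates within a population are separate mice. CPM were scaled by TMM, and the search for similar patterns used log2 CPM (prior count 2, mean of at least 3) after limma 3.58.1 had removed the mouse effect. The test was checked on simulated counts.

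The members and lists were chosen with earlier results of these data known. Beside the 9 members, the genes named are the 3 most similar in pattern to each member and genes from the lists. The latter are among those with the smallest p in 4n-whole against 2n-whole or in 4n-top against 4n-bottom, and not all of these are named. The other listed targets, landmarks and markers were named after their values were seen. Positions are from GENCODE M39 on GRCm39, the build of the counts, and promoter sequences from RefSeq on GRCm38.p6.

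The alternatives were a fit with no replicate block, ComBat-seq (sva 3.50.0) followed by DESeq2 1.42.0, DESeq2 with the mouse in its model, edgeR with size factors from DESeq2, all genes kept whatever their counts, counts halved, a fit to 2 populations at a time, calls by adjusted p alone, and each mouse left out in turn. A run of DESeq2 with the mouse in its model and the filter on low counts was added after seeing the data.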

Additional observations from a re-analysis of the deposited data

How the results depend on the processing

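Over the 8 tested genes, 6 comparisons and 12 alternatives, 542 of 576 values kept their direction and were called, or not called, as before. Of the rest, 9 lost a call, 4 gained one, 21 that were not called changed direction and 0 reversed a called direction. The size of a shift was not weighed in these counts. The replicate block decided the most. With no replicate block, 0 genes were called in 4n-whole, 4n-bottom or 4n-top against 2n-whole, where 2, 2 and 1 were called with it, and over all tested genes the counts were 40, 0 and 2 in place of 607, 81 and 168. In 4n-whole against 4n-bottom, 1 gene in place of 0 was called, Nr1i3, by ComBat-seq followed by DESeq2, by DESeq2 with the replicate block without a filter and by edgeR with no filter on low counts. When 1 mouse was left out, the counts ran from 1 to 2 in 4n-whole and in 4n-bottom against 2n-whole, the lost call being Cyp2b10, and from 0 to 1 in 4n-whole against 4n-bottom, where without mouse 2 Nr1i3 stood at 0.76 (adjusted p = 0.0156 by edgeR). The joint test of the mice called 6 to 7 genes with 1 mouse left out. The size factors of DESeq2, counts halved and the absence of a fold limit changed no call among the 8 genes.

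Counts over all genes moved more. For 4n-whole against 2n-whole, ComBat-seq with DESeq2 gave 1160, DESeq2 with the block 4606 (814 on the filtered genes), adjusted p alone 957 and the 2 populations alone 305, with 244 to 1025 when a mouse was left out. For 4n-bottom they were 275, 3867 (143), 86 and 92, with 145 when no filter was used and 49 to 111 when a mouse was left out. For 4n-top they were 538, 4433 (329), 185 and 300, with 261 and 98 to 238. For 4n-top against 4n-bottom, 2 genes in the reported fit stood beside 18, 3003 (49), 2 and 15, with 25 and 0 to 29, and 0 with no replicate block. For 4n-whole against 4n-bottom, 1 gene stood beside 30, 3379 (44), 1 and 0, with 45 and 0 to 65, and for 4n-whole against 4n-top 0 stood beside 4, 2751 (40), 0 and 0, with 5 and 0 to 1. Depth limits Cyp2b13 and Cyp2b9. The calls of Cyp2b10 lie near the fold limit, and where they were lost it was on the adjusted p.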
